A study of Mus musculus with 48 samples.

Results

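Trem2, Tyrobp, Msr1, Cd68, Lgals3, Cd9, Apoe, Fabp5, Gpnmb and Atp6v0d2 are genes used to describe macrophages that engulf debris and handle lipid. They were listed by name, with earlier results of these data known, and are 10 of the 18782 genes in the count table. All 10 passed the filter on low counts and were among the 14431 genes tested. Their levels were followed in the thoracic aortas of 48 wild-type C57BL/6J mice, 1 library per mouse, which were 3 weeks old at the start. Female mice on normal drinking water (FeCon, n = 10) and male mice on normal water (MaCon, n = 10) were the controls. The other mice drank water with 0.4% BAPN (β-aminopropionitrile) for 28 days, which blocks lysyl oxidase, the enzyme needed for the cross-linking of collagen and elastin fibres. BAPN-treated aortas without a microscopically visible lesion formed FeNonAD (n = 8) and MaNonAD (n = 4). Those with aortic dissection or aneurysm formed FeAAD (n = 9) and MaAAD (n = 7). Only mice alive at the end were sequenced. The paper reports that aortic rupture killed a larger share of treated males than of treated females, so the BAPN groups hold survivors only. For the AAD groups the lesioned segment was used, so sampling site and lesion cannot be told apart, and BAPN reaches the whole animal and not only the aorta. In such whole-wall samples, more macrophages and more RNA per macrophage cannot be told apart.

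TREM2 is a lipid-sensing receptor at the surface of macrophages that has no signalling domain of its own. It signals through the adaptor TYROBP (DAP12), whose ITAM motif recruits the kinase SYK. In atherosclerotic plaques, fat tissue and injured brain, macrophages that have taken up lipid or cell debris are known to carry TREM2, GPNMB, CD9, galectin-3 and FABP5, and to process their cargo in lysosomes acidified by the V-ATPase proton pump. Several of these genes are also active outside macrophages: Apoe and Cd9 are read in smooth muscle, fibroblasts and other cells of the vessel wall.

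On GRCm38 (GENCODE M21) Trem2 lies on chromosome 17, bases 48346401 to 48354147, within the cluster of Trem genes, and Tyrobp and Apoe lie apart from each other on chromosome 7. Gpnmb and Cd9 both lie on chromosome 6, and the other members are on chromosomes 3, 4, 8, 11 and 14. The count table holds no coordinates. Cd9 overlaps exons of the antisense gene Gm26728, and whether the counting used strand was not given in the sources used here.

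RefSeq windows of 300 bases around the start site (GRCm38.p6, 250 bases before to 50 after) were available for Trem2, Gpnmb, Cd68, Lgals3, Apoe and Cd9. The windows of Fabp5, Tyrobp, Msr1 and Atp6v0d2 were not used here. The 3 windows printed here are those that held any of 4 motifs searched on both strands: the E-box CACGTG, the M-box TCATGTG, a PU.1 core GAGGAAG and AP-1 TGANTCA. PU.1 is the factor that marks the myeloid lineage, AP-1 is an inducible factor of activated cells, and the E-box and M-box are letters bound by the MiT/TFE factors that control lysosomal genes. Capitals mark the matches, and each sequence reads 5′ to 3′ along the gene's own strand. Trem2 is at chr17:48346151-48346450 on the plus strand, Gpnmb at chr6:49036268-49036567 on the plus strand and Cd68 at chr11:69666121-69666420 on the minus strand.
Trem2: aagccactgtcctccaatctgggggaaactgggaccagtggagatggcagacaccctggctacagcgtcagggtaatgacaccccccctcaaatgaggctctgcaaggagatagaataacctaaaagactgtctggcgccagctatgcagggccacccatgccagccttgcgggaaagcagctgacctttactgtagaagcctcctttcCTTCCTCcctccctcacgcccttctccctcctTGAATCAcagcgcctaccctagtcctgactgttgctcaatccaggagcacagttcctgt
Gpnmb: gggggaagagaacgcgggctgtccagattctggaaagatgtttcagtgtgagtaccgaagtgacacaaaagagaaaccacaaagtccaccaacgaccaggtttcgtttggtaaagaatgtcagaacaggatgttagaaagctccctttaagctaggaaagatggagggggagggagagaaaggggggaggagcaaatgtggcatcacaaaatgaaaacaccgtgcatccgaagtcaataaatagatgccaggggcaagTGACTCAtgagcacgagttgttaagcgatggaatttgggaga
Cd68: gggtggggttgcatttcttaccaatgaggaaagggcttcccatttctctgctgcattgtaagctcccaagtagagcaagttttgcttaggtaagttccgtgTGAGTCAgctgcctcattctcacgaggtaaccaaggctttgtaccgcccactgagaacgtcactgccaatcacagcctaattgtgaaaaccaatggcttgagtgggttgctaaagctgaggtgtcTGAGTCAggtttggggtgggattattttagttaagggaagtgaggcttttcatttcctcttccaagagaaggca

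In the Trem2 window the PU.1 core, on the reverse strand, began 41 bases before the start site and the AP-1 match 9 bases before it. Gpnmb had an AP-1 match beginning 8 bases after its start, and Cd68 had AP-1 matches 149 and 24 bases before it. AP-1 was thus present in 3 of the 6 genes with a window, against 8.97% of all 27025 genes with a RefSeq window, and the PU.1 core in 1 of 6 against 15.4%. The E-box and the M-box were in 0 of 6, against 8.09% and 4.31% of all genes. These matches describe letters in the windows only.

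The levels of Trem2, Tyrobp, Msr1, Cd68, Lgals3, Fabp5 and Atp6v0d2 were higher in dissected or aneurysmal aortas than in controls of both sexes. A differentially expressed gene (DEG) had a Benjamini-Hochberg adjusted p under 0.05 over all genes tested and a log2 fold change of at least 1 in either direction. In FeAAD against FeCon these 7 members were DEGs, all higher, where 9.94% of all genes tested were called higher. In MaAAD against MaCon 8 members were DEGs, all higher, where 9.18% of all genes were called higher, and the added gene was Gpnmb. The median log2 fold change over the 10 members was 1.78 in females and 2.05 in males, beside 0.0013 and -0.030 over all genes tested. Apoe and Cd9 were DEGs in neither sex.

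**Figure D1:**
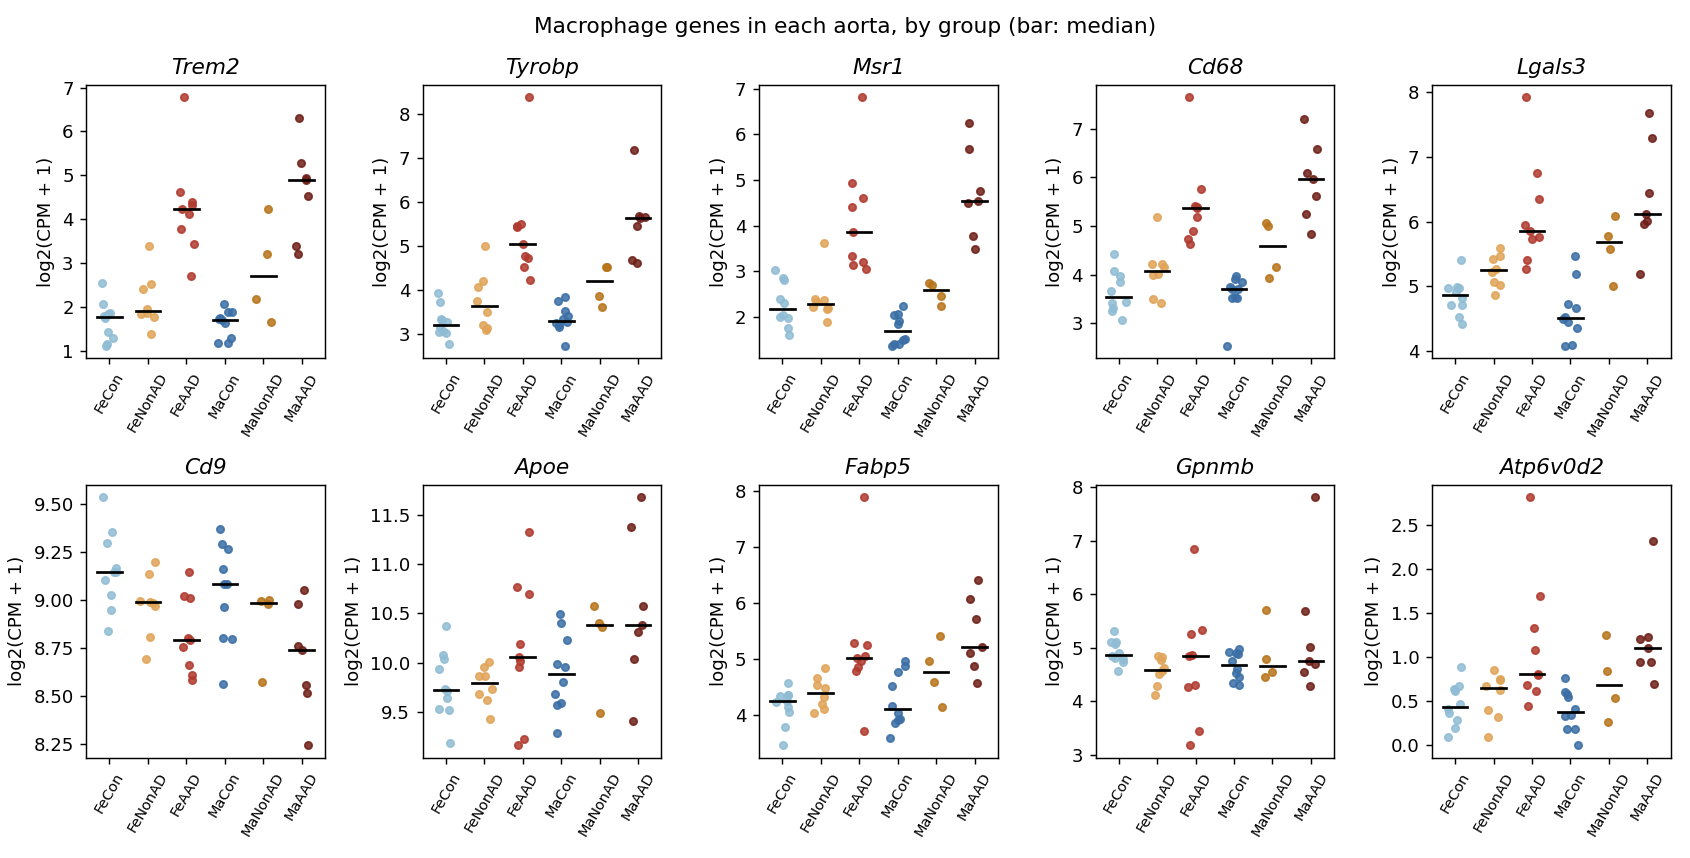
Levels of the 10 genes in each of 48 aortas as log2(CPM + 1), where CPM is the count scaled to library size (TMM), 1 point per aorta and a bar at each group's median. The y axes differ between genes and do not start at 0. For Trem2, Tyrobp, Msr1 and Cd68 every AAD aorta lies above every control of its sex, whereas the FeAAD aortas reach both below and above the controls for Gpnmb.

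Trem2, the receptor, had the largest log2 fold change of the members in both sexes, in males close to that of Msr1 (3.69 ± 0.44). In females its level was 1.18 to 4.81 CPM in FeCon (median 2.43), 1.60 to 9.43 in FeNonAD (median 2.74) and 5.51 to 109 in FeAAD (median 17.7). In males it was 1.27 to 3.16 CPM in MaCon (median 2.28), 17.8, 3.57, 8.21 and 2.14 in the 4 MaNonAD aortas and 8.19 to 77.5 in MaAAD (median 28.6). The lowest AAD aorta was thus above the highest control in each sex, and 1 aorta in each AAD group, FeAAD5 and MaAAD7, stood well above the rest. The log2 fold change was 3.45 ± 0.45 (SE) in FeAAD against FeCon (adjusted p = 3.32e-08) and 3.81 ± 0.46 in MaAAD against MaCon (adjusted p = 2.27e-08), that is 10.9-fold and 14.1-fold. Without FeAAD5 the female value was 2.71.

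Tyrobp, which encodes the adaptor that carries the TREM2 signal and that of several other receptors of myeloid and natural killer cells, was higher in AAD as well. Female levels were 5.74 to 14.1 CPM in FeCon (median 8.23), 7.44 to 31.0 in FeNonAD (median 11.3) and 17.7 to 333 in FeAAD (median 31.7). Male levels were 5.61 to 13.2 CPM in MaCon (median 8.83), 21.7, 13.6, 21.9 and 11.1 in MaNonAD and 23.5 to 144 in MaAAD (median 48.3). No AAD aorta overlapped the controls of its sex, and in males none overlapped MaNonAD either. The log2 fold change against Con was 2.88 ± 0.40 in FeAAD (adjusted p = 1.66e-07) and 2.55 ± 0.41 in MaAAD (adjusted p = 3.61e-06). Without FeAAD5, the highest FeAAD aorta, the Tyrobp value in females was 1.84, still a DEG.

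Msr1, the class A scavenger receptor that takes up modified lipoproteins, was nearly as low as Trem2 in control aortas. It was measured at 2.05 to 7.15 CPM in FeCon (median 3.53), 2.73 to 11.2 in FeNonAD (median 3.84) and 7.24 to 111 in FeAAD (median 13.5). Males had 1.59 to 3.73 CPM in MaCon (median 2.23), 5.75, 3.76, 5.52 and 4.54 in MaNonAD and 10.2 to 75.4 in MaAAD (median 22.3). The 3 male groups did not overlap one another at all, whereas FeNonAD overlapped FeCon, with FeNonAD8 above it. The rise against Con was 2.63 ± 0.40 on the log2 scale in FeAAD (adjusted p = 8.87e-07) and 3.69 ± 0.44 in MaAAD (adjusted p = 1.51e-08). Msr1 was at 1.85 in females when FeAAD5 was left out.

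Cd68 encodes a heavily glycosylated protein of late endosomes and lysosomes that is the usual histological marker of macrophages. Its levels were 7.33 to 20.5 CPM in FeCon (median 10.7), 9.72 to 35.4 in FeNonAD (median 15.9) and 23.7 to 199 in FeAAD (median 40.1). In males they were 4.81 to 14.7 CPM in MaCon (median 12.1), 31.1, 16.9, 32.6 and 14.2 in MaNonAD and 27.6 to 145 in MaAAD (median 61.3). AAD and Con did not overlap in either sex. The log2 fold change was 2.17 ± 0.32 in FeAAD (adjusted p = 3.91e-07) and 2.58 ± 0.33 in MaAAD (adjusted p = 7.17e-08). Leaving out FeAAD5 gave 1.59 for Cd68 in females.

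Trem2, Tyrobp, Msr1 and Cd68 were therefore the members whose AAD and Con aortas did not overlap, in females and in males, each time with AAD above. Among all genes tested, 3.63% were above Con without overlap in FeAAD and 6.14% in MaAAD.

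Lgals3 encodes galectin-3, a secreted and cytosolic lectin that binds damaged lysosomes and is abundant in foamy macrophages. Its levels were 20.4 to 41.4 CPM in FeCon (median 28.2), 28.2 to 47.2 in FeNonAD (median 36.9) and 37.4 to 242 in FeAAD (median 56.8). In males they were 15.9 to 43.2 CPM in MaCon (median 21.8), 67.2, 53.6, 46.9 and 31.1 in MaNonAD and 35.6 to 204 in MaAAD (median 68.3). The AAD aortas overlapped the upper controls in both sexes, and 3 of the 4 MaNonAD aortas were above every MaCon aorta. The gene rose by 1.52 ± 0.27 on the log2 scale in FeAAD (adjusted p = 1.04e-05) and 1.98 ± 0.28 in MaAAD (adjusted p = 4.46e-07).

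Fabp5, a cytosolic carrier of fatty acids, was called in females only with FeAAD5 included. It ranged from 10.0 to 22.9 CPM in FeCon (median 18.0), 15.5 to 27.5 in FeNonAD (median 20.2) and 12.1 to 236 in FeAAD (median 31.5). Male values were 11.1 to 30.2 CPM in MaCon (median 16.2), 41.4, 30.3, 23.0 and 16.8 in MaNonAD and 22.8 to 84.2 in MaAAD (median 36.0). The highest value in FeAAD, in FeAAD5, was followed by 38.1 CPM. The log2 fold change was 1.60 ± 0.33 in FeAAD against FeCon (adjusted p = 8.77e-05), but 0.77 without FeAAD5, below the fold threshold. In MaAAD against MaCon it was 1.26 ± 0.34 (adjusted p = 0.0031).

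Apoe encodes apolipoprotein E, a lipoprotein component that takes up cholesterol from loaded cells. It was the most abundant member and changed little. Its level was 584 to 1326 CPM in FeCon (median 845), 691 to 1029 in FeNonAD (median 889) and 573 to 2557 in FeAAD (median 1069). Males had 625 to 1438 CPM in MaCon (median 944), 1354, 1520, 1312 and 717 in MaNonAD and 678 to 3273 in MaAAD (median 1333). The lowest FeAAD aorta lay below the lowest FeCon aorta, and the groups overlapped widely in both sexes. The log2 difference from Con was 0.49 ± 0.23 in FeAAD (adjusted p = 0.0721) and 0.77 ± 0.24 in MaAAD (adjusted p = 0.0104), the latter past the adjusted p alone and under the fold threshold.

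Cd9, a tetraspanin that organises receptors and integrins in the membrane, was the only member that was lower in AAD than in Con in both sexes. Its levels were 457 to 742 CPM in FeCon (median 565), 412 to 586 in FeNonAD (median 507) and 382 to 566 in FeAAD (median 441). Corresponding male values were 377 to 661 CPM in MaCon (median 542), 379, 509.99, 503 and 512 in MaNonAD and 302 to 531 in MaAAD (median 426). The AAD and Con groups overlapped in both sexes. The log2 difference was -0.34 ± 0.10 in FeAAD (adjusted p = 0.0071) and -0.34 ± 0.11 in MaAAD (adjusted p = 0.0144), past the adjusted p and under the fold threshold, where 20.6% and 16.1% of all genes were lower by adjusted p alone, whatever their fold.

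Gpnmb and Atp6v0d2 were highest in the same aorta within each AAD group. Gpnmb encodes a transmembrane glycoprotein of melanosomes and lysosomes that is induced when lysosomes are stressed, and Atp6v0d2 encodes the d2 subunit of the V-ATPase, found mainly in osteoclasts and some macrophages. Gpnmb measured 22.6 to 38.9 CPM in FeCon (median 28.3), 16.5 to 27.9 in FeNonAD (median 23.1) and 8.04 to 114 in FeAAD (median 28.0). In males it measured 18.7 to 30.6 CPM in MaCon (median 24.5), 51.6, 20.9, 26.7 and 22.3 in MaNonAD and 18.5 to 225 in MaAAD (median 25.9).
The AAD medians thus lay close to those of the controls, and the AAD groups reached both below and above them, with 4 FeAAD aortas lower than every FeCon aorta. The log2 fold change was 0.18 ± 0.35 in FeAAD (adjusted p = 0.715) and 1.20 ± 0.37 in MaAAD (adjusted p = 0.0097). Without the aorta MaAAD5 the male value was 0.22 and no longer a DEG, so that call rested on 1 aorta.

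Atp6v0d2 had few counts, at most 100 in any library, and 0 counts in MaCon8, a count that allows up to 3 at this depth. Its levels were 0.0651 to 0.851 CPM in FeCon (median 0.354), 0.0655 to 0.806 in FeNonAD (median 0.574) and 0.363 to 6.06 in FeAAD (median 0.749). Those of males were 0 to 0.705 CPM in MaCon (median 0.301), 1.38, 0.446, 0.789 and 0.20 in MaNonAD and 0.620 to 4.01 in MaAAD (median 1.15). The AAD ranges overlapped those of Con, with most AAD aortas in the upper part. It rose by 1.95 ± 0.47 on the log2 scale in FeAAD (adjusted p = 0.00075) and by 2.12 ± 0.50 in MaAAD (adjusted p = 0.000754). Without FeAAD8 the Atp6v0d2 value in females was 1.31, and the gene did not pass the filter when FeAAD and FeCon were fitted alone.

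**Figure D2:**
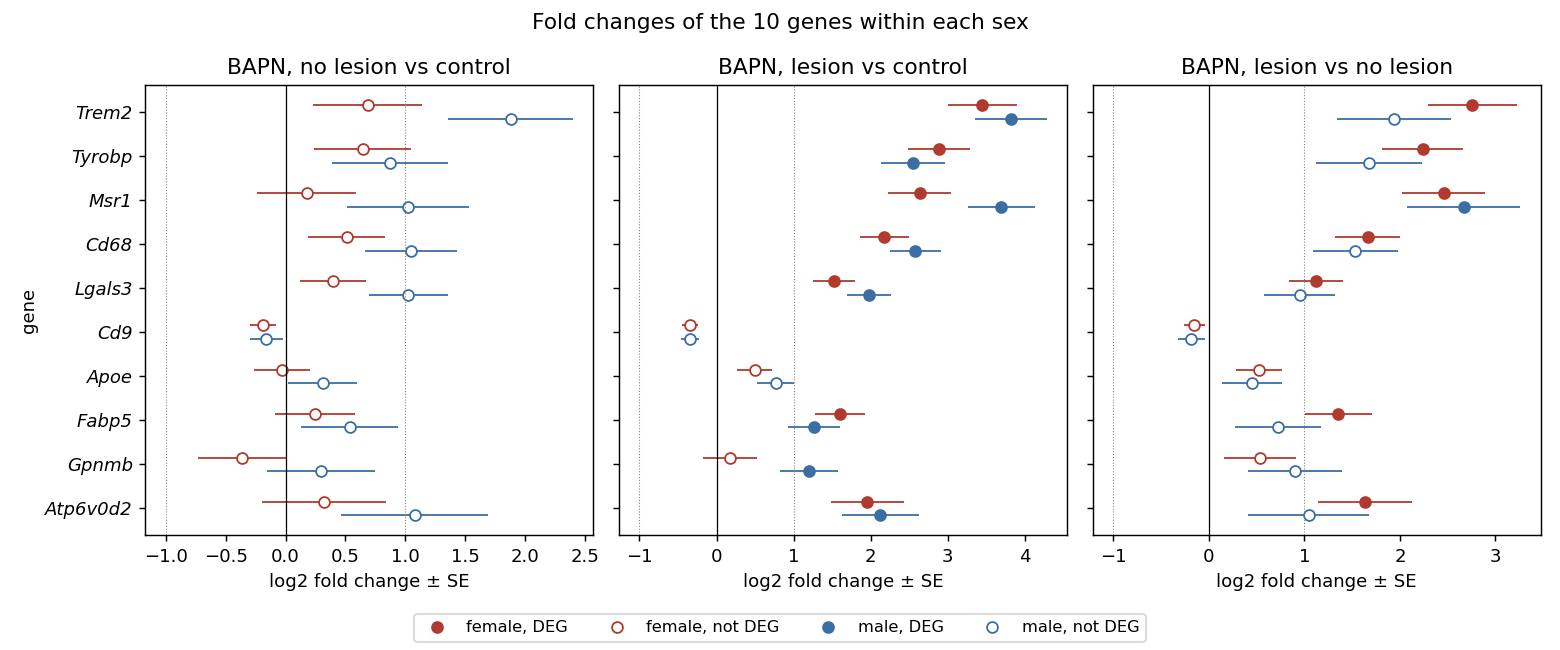
Log2 fold changes of the 10 genes with standard errors in 3 comparisons within each sex, with filled points for DEGs and dotted lines at a log2 fold change of 1 in either direction. No point is filled for BAPN without a lesion, whereas 7 points in females and 8 in males are filled for AAD against Con.

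Compared per length of the longest GENCODE M21 transcript, the order of median levels was led by Apoe and Cd9 and ended by Msr1, Trem2 and Atp6v0d2 in FeCon and MaCon alike. In FeCon the median was 599.8 CPM per kilobase for Apoe and 460.5 for Cd9, then 19.8 for Lgals3, 13.8 for Tyrobp and 8.68 for Cd68, down to 0.97 for Msr1, 0.51 for Trem2 and 0.14 for Atp6v0d2. In FeAAD Tyrobp, at 53.1 CPM per kilobase, passed Lgals3, at 40.0, while Trem2 reached 3.70, beside 3.71 for Msr1. In MaAAD the values were 81.0 for Tyrobp, 49.9 for Cd68, 48.1 for Lgals3 and 5.97 for Trem2. These lengths are those of the longest annotated transcript, 4784 bases for Trem2 and 3238 for Fabp5, and a shorter transcript in use would raise the value.

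BAPN treatment without a lesion was compared with control to ask whether the genes moved with the drug in an aorta that had not dissected. No member was a DEG in FeNonAD against FeCon, where 2.75% of all genes tested were called, or in MaNonAD against MaCon, where 0.478% were. At an unadjusted p under 0.05 the count was 0 of 10 in females and 3 of 10 in males, Trem2, Lgals3 and Cd68, beside 28.9% and 12% of all genes. In males the largest difference was that of Trem2, at 1.88 ± 0.52 on the log2 scale (adjusted p = 0.0793), with MaNonAD1 and MaNonAD3 above every MaCon aorta, MaNonAD2 just above the highest and MaNonAD4 within the range. Lgals3 differed by 1.02 ± 0.33 (adjusted p = 0.154), Cd68 by 1.04 ± 0.39 (adjusted p = 0.221) and Msr1 by 1.02 ± 0.51 (adjusted p = 0.421).
All 4 MaNonAD aortas were above all MaCon aortas for Msr1, where 0.617% of all genes tested did not overlap in that direction. MaNonAD holds 4 aortas, and its count of called members depended on the setting. When MaNonAD and MaCon were fitted alone 4 of 10 members were DEGs, Trem2, Cd68, Lgals3 and Msr1, where 1.02% of all genes were called, and Trem2 was also a DEG in DESeq2 and when MaNonAD2 or MaNonAD4 was left out. Without MaNonAD1, the highest MaNonAD aorta for Trem2, its difference was 1.10. Over the alternative settings the adjusted p of Trem2 ran from 0.0307 to 0.0906. In females the differences ran from -0.36 for Gpnmb to 0.69 for Trem2, and FeNonAD8 was the highest FeNonAD aorta for Trem2, Cd68, Lgals3, Tyrobp and Msr1.

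Dissected or aneurysmal aortas were also compared with BAPN-treated aortas without a lesion, which share the drug. These comparisons use the same AAD libraries as those against Con. In FeAAD against FeNonAD 7 members were DEGs, all higher, where 6.79% of all genes tested were called higher. The log2 fold changes were 2.76 ± 0.47 for Trem2, 2.46 ± 0.43 for Msr1, 2.24 ± 0.43 for Tyrobp, 1.66 ± 0.34 for Cd68, 1.64 ± 0.49 for Atp6v0d2, 1.36 ± 0.35 for Fabp5 and 1.12 ± 0.29 for Lgals3.
Without FeAAD5 the value of Trem2 was 2.02, that of Msr1 1.68, that of Tyrobp 1.20 and that of Cd68 1.08, all still DEGs, while those of Fabp5 (0.53) and Lgals3 (0.71) were below the fold threshold, and without FeAAD8 that of Atp6v0d2 (0.99) was. Neither Fabp5 nor Atp6v0d2 was called when FeAAD and FeNonAD were fitted without the other groups, where the adjusted p was highest among the settings, at 0.0708 and 0.0678. In MaAAD against MaNonAD Msr1 alone was a DEG, at 2.67 ± 0.59 (adjusted p = 0.0497), where 0.353% of all genes tested were called. Trem2 had 1.94 ± 0.59 (adjusted p = 0.067), or 2.71 without MaNonAD1, Cd68 1.54 ± 0.44 (adjusted p = 0.0563) and Tyrobp 1.68 ± 0.56 (adjusted p = 0.0822). Tyrobp and Msr1 did not overlap between MaAAD and MaNonAD, as was so for 2.97% of all genes in that direction. The Msr1 call was lost without the filter on low counts, when MaAAD and MaNonAD were fitted alone, and in 7 of 11 fits that left out 1 library (MaNonAD2, MaNonAD3, MaNonAD4, MaAAD3, MaAAD5, MaAAD6 or MaAAD7), while Trem2 and Cd68 were called without MaNonAD1, MaAAD1, MaAAD2 or MaAAD4.

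Sex was compared within each condition and as a difference between the sexes in the response. No member was a DEG in MaCon against FeCon (background 1.51% of all genes), MaNonAD against FeNonAD (0.0485%) or MaAAD against FeAAD (0.0693%). The response to BAPN without a lesion did not yield a member called between the sexes (0.298% of all genes), nor did the AAD response (0.52%) or the step from NonAD to AAD, in which 0 genes were called by edgeR and 1.04% had an unadjusted p under 0.05. The AAD response of Msr1 was larger in males by 1.06 ± 0.58 on the log2 scale (adjusted p = 0.377) and that of Gpnmb by 1.02 ± 0.51 (adjusted p = 0.332), but by 0.046 without MaAAD5. The differences of Tyrobp (-0.33 ± 0.57) and Fabp5 (-0.34 ± 0.47) turned to 0.71 and 0.49 without FeAAD5. Without FeAAD5 the Msr1 difference was 1.84 (adjusted p = 0.0263), a DEG, where the fits without 1 library gave adjusted p from 0.0263 to 0.576. A Gpnmb call in males and none in females is therefore not a shown sex difference.

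To compare the members with macrophage markers, each was tested again relative to the mean log count of 12 of these (Adgre1, Csf1r, Fcgr1, Fcgr3, Mpeg1, Laptm5, Aif1, C1qa, C1qb, C1qc, Ctss and Itgam). The summed markers measured 204 to 520 CPM in FeCon and 186 to 478 in MaCon, against 580 to 3975 in FeAAD and 787 to 3376 in MaAAD. All 12 were themselves DEGs, higher, in both AAD against Con comparisons. Per library Mpeg1 rose by 4.00 ± 0.43 in females and 4.08 ± 0.44 in males, and C1qa by 1.34 ± 0.25 and 1.68 ± 0.26. The 3.45 and 3.81 of Trem2 lie within that spread. Relative to the markers, a gene read only in macrophages, at a fixed amount per macrophage marker, would stay at 0. The median of all genes tested fell by 2.01 on that log2 scale in FeAAD and by 2.28 in MaAAD.
Trem2 lay above the mean of the markers, at 0.97 ± 0.26 in FeAAD (adjusted p = 0.000486, under the fold threshold of 1) and 1.17 ± 0.28 in MaAAD (adjusted p = 8.34e-05, a DEG). Both values lie at the fold threshold, the female one being 1.38 with the summed markers as reference and the male one 0.99 with Adgre1, Csf1r and Mpeg1 as reference. By that rule 1.61% of all genes in females and 1.01% in males were called higher. Msr1 was at 1.18 ± 0.28 in males (adjusted p = 8.94e-05, a DEG) and 0.082 ± 0.26 in females (adjusted p = 0.763). A sex difference was not tested relative to the markers. The median log2 ratio of Msr1 was -2.20 in FeAAD and -1.94 in MaAAD, beside -2.14 in FeCon and -2.88 in MaCon. Tyrobp (0.19 ± 0.22 and -0.018 ± 0.24), Cd68 (-0.22 ± 0.21 and 0.076 ± 0.23) and Atp6v0d2 (0.031 ± 0.50 and -0.20 ± 0.53) had values near 0 in females and males, and each of those signs but that of Tyrobp in females turned with the choice of reference.

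The remaining members had values below 0 relative to the markers. Lgals3, not called in either sex, was at -0.77 ± 0.27 in FeAAD (adjusted p = 0.0061) and -0.54 ± 0.29 in MaAAD (adjusted p = 0.0698). Fabp5 was at -1.002 ± 0.26 and -1.08 ± 0.28, Gpnmb at -1.79 ± 0.39 and -1.20 ± 0.42 (-2.46 without FeAAD8 and -1.91 without MaAAD5) and Apoe at -1.66 ± 0.28 and -1.64 ± 0.31. Cd9 was at -2.30 ± 0.32 and -2.55 ± 0.36, close to the median of all genes. Fabp5, Gpnmb, Apoe and Cd9 were called lower in both sexes, as were 90.6% of all genes in females and 92.2% in males, so these calls say little about the members. The Fabp5 call lay at the threshold, and was lost in 11 of 19 fits without 1 library in females and 2 of 17 in males, and in both sexes with the summed markers as reference.

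**Figure D3:**
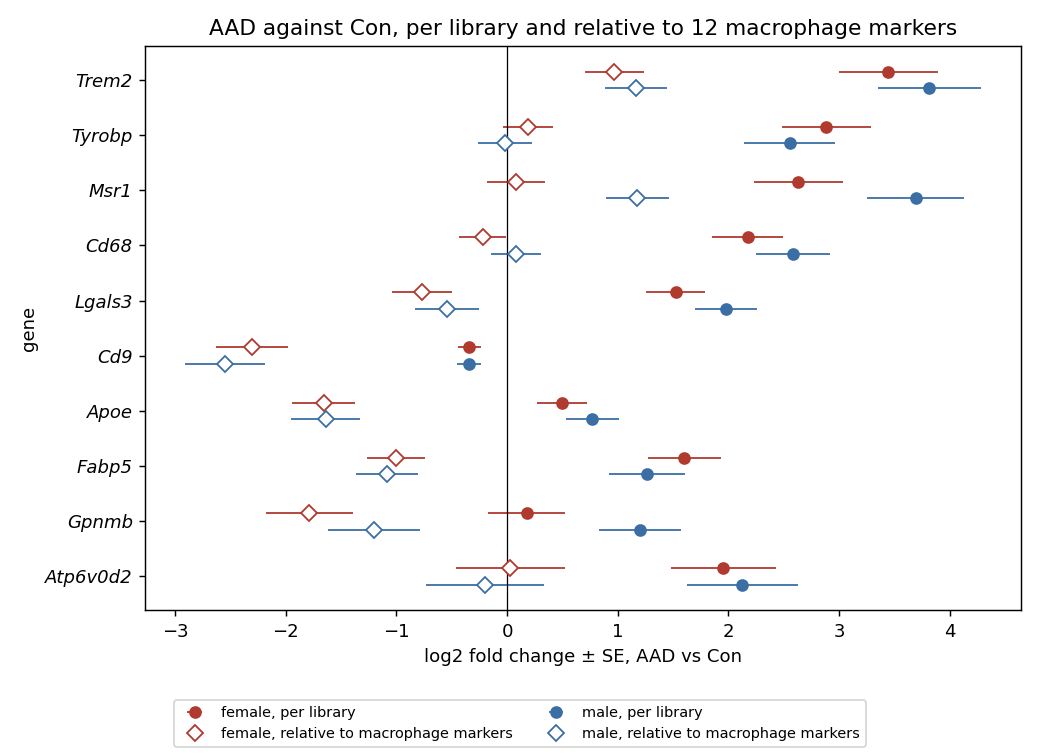
Log2 fold changes of AAD against Con with standard errors, per library (filled circles) and relative to 12 macrophage markers (open diamonds), in females and males. Relative to the markers Trem2 stays above 0 in both sexes and Msr1 in males, and Tyrobp, Cd68 and Atp6v0d2 lie near 0. Apoe, Gpnmb and Cd9 lie below -1. A sex difference was not tested relative to the markers.

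Among the 16 AAD aortas the members varied together in more than 1 way. The correlations here are descriptions over 16 aortas of 2 sexes, on log2(CPM + 1), and share the libraries' depth and cell make-up. Trem2 went with Tyrobp (Pearson r 0.94, Spearman rho 0.95), Cd68 (r 0.92), Fabp5 (r 0.89) and Lgals3 (r 0.87), and less with Msr1 (r 0.83) and Apoe (r 0.71). Without FeAAD5 and MaAAD7 the r of Trem2 was 0.91 with Tyrobp and 0.59 with Msr1. Gpnmb went with Atp6v0d2 (r 0.78, rho 0.57), and that relation was r 0.38 without MaAAD5 and FeAAD8. Gpnmb and Trem2 had r 0.22, Gpnmb and Tyrobp r 0.06.
FeAAD5 was the highest FeAAD aorta for Trem2, Cd68, Lgals3, Apoe, Fabp5, Tyrobp and Msr1, with a macrophage marker sum of 3975 CPM. MaAAD7 was the highest MaAAD aorta for Trem2, Cd68, Tyrobp and Msr1, with 3376 CPM. By contrast FeAAD8 and MaAAD5 were the highest for Gpnmb and Atp6v0d2, with marker sums of 1042 and 1819 CPM, and MaAAD5 also for Lgals3. The aortas highest for Gpnmb and those highest for Trem2 were thus different animals in both sexes.

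**Figure D4:**
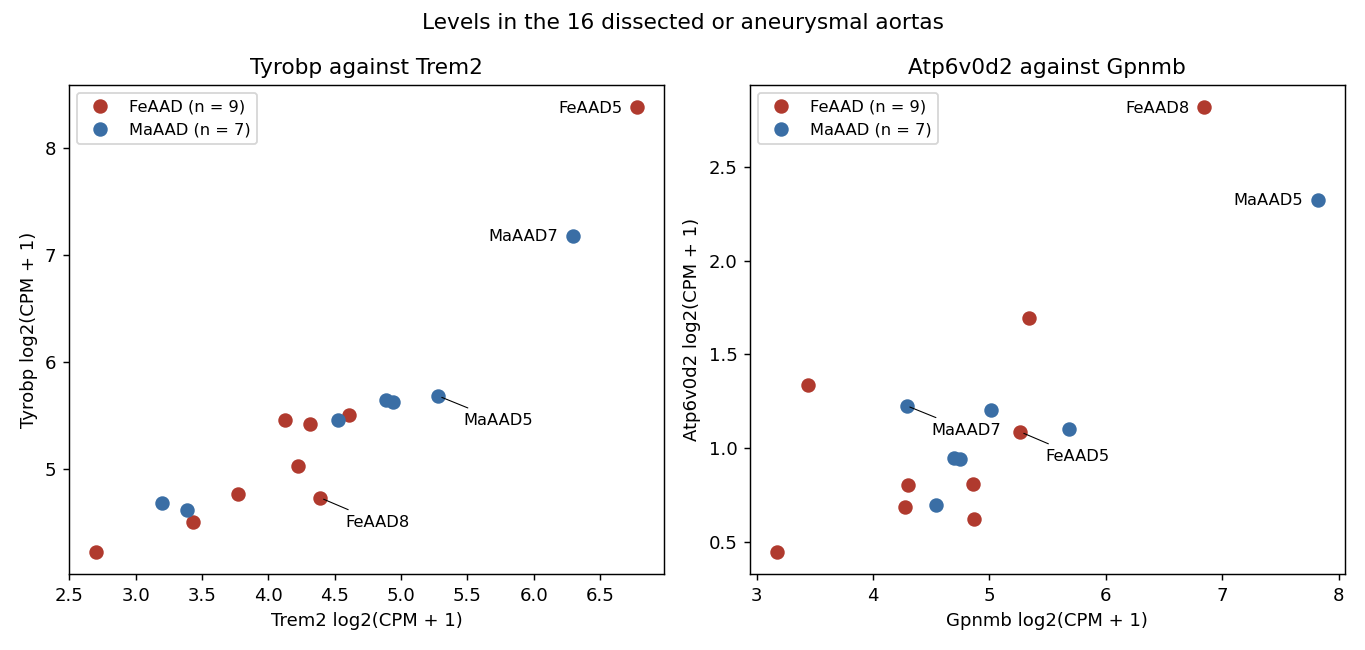
Tyrobp against Trem2 (left) and Atp6v0d2 against Gpnmb (right), as log2(CPM + 1), in 9 FeAAD and 7 MaAAD aortas. The Trem2 pair forms a line topped by FeAAD5 and MaAAD7, whereas the Gpnmb pair is set by FeAAD8 and MaAAD5, with the remaining aortas in a cloud.

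The genes whose levels were most like Trem2 over the 28 BAPN-treated aortas were Cd300c2 (r 0.98), Ctss (r 0.97), B4galnt1 (r 0.97), Lat2 (r 0.97) and Abcc3 (r 0.97). Those most like Gpnmb were Cdk18 (r 0.78), Abcc4 (r 0.76), Slc40a1 (r 0.75), Sqstm1 (r 0.74) and Atp6v0d2 (r 0.73). Ctss encodes a lysosomal protease of macrophages and Lat2 an adaptor of immune receptors, while Slc40a1 encodes ferroportin, the iron exporter, and Sqstm1 the autophagy receptor p62. The 5 genes of each set were picked as the highest of 14431, so their r has no test.

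Genes that act next to the members were followed in lists, whose counts are read against the 9.94% of all genes called higher in FeAAD and the 9.18% in MaAAD. Of 12 genes of ITAM signalling downstream of TYROBP, all 12 were DEGs, higher, in FeAAD against FeCon and in MaAAD against MaCon, and none was in either NonAD group. The kinase Syk rose by 1.77 ± 0.23 on the log2 scale in FeAAD and 1.67 ± 0.24 in MaAAD, and the phosphatase Inpp5d (SHIP1) by 1.72 ± 0.24 and 2.06 ± 0.25. The list median was 2.22 in females and 2.30 in males, close to the 2.28 and 2.29 of the 12 macrophage markers. The other genes of the Trem cluster were near 0 in controls, their sum being 0.0692 to 0.586 CPM in FeCon, and 4 of 5 passed the filter on low counts. Such genes pass it through the libraries where they are high, so their count called is no support. Trem1, a receptor of neutrophils and monocytes, had a mean of 0.0467 CPM in FeCon and 6.37 in FeAAD.

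Uptake genes were counted in 2 lists. Of 10 scavenger receptors tested, 2 rose in FeAAD (Olr1, the receptor for oxidised LDL, by 4.73 ± 0.81, and Cxcl16 by 1.79 ± 0.22) and 4 in MaAAD (Olr1 by 5.56, Marco by 5.56, Cxcl16 by 1.80 and Stab1 by 1.01), the latter count being 2, of 9 tested, without MaAAD5 or MaAAD7. Marco, at a mean of 0.151 CPM in MaCon and 7.52 in MaAAD, is among the genes that passed the filter through few libraries. Olr1, at 0.198 CPM in FeCon and 5.61 in FeAAD, passed it through the libraries where it is high. The calls of both are no support. The abundant Scarb2 differed by -0.73 ± 0.12 in FeAAD, past the adjusted p (3.4e-06) and under the fold threshold, and by 0.26 ± 0.13 in MaAAD. Of 14 engulfment genes 2 rose in both sexes, a share near that of all genes. These were Cd300lf, higher by 6.95 and 6.79 and Dock2, higher by 2.22 and 2.18. Cd300lf had a mean of 0.0912 CPM in FeCon and 12.1 in FeAAD. It passed the filter through the libraries where it is high, so its call is no support. The abundant Lrp1 and Mfge8, at a mean of 1479 and 1235 CPM over all aortas, had differences of -0.10 and -0.25 in females and 0.23 and -0.15 in males that were not DEGs.
In lipid storage and efflux 2 of 17 genes rose in FeAAD, also near the share of all genes. These were Apoc2, by 5.53 ± 0.90, and the cholesterol exporter Abcg1, by 1.58 ± 0.23. In MaAAD 5 of 17 rose (those and Nceh1, Soat1 and Abca1, by 1.43, 1.02 and 1.01), or 3 of 17 without MaAAD5. Apoc2 had a mean of 0.107 CPM in FeCon and 5.43 in FeAAD. It passed the filter through the libraries where it is high, so its call is no support. Of the other fatty-acid binding proteins 3 of 6 were tested and 0 were called in either sex, with 1 called higher without FeAAD2 or FeAAD8, 1 lower without FeAAD8, and Fabp4 differing by 0.16 ± 0.35 and 0.10 ± 0.38. Fabp3, the heart-type protein, differed by -0.93 ± 0.38 (adjusted p = 0.0443) and -1.01 ± 0.42 (adjusted p = 0.0531).

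Of 17 other V-ATPase subunits 0 were DEGs in either sex, with a list median of 0.058 in females and -0.015 in males, beside 1.95 and 2.12 for Atp6v0d2. Of 14 lysosomal proteins 1 was a DEG in both, the protease Lgmn, at 1.13 ± 0.19 and 1.26 ± 0.20, which was not called without FeAAD5 or MaAAD7, while Psap and Ctsb, the most abundant, differed by 0.062 and 0.36 in females and 0.069 and 0.39 in males, where Ctsb passed the adjusted p in both sexes (0.0143 and 0.0191) under the fold threshold. Of the 4 MiT/TFE factors Tfec rose, by 2.37 ± 0.53 and 2.03 ± 0.54, and Tfe3, Tfeb and Mitf were not called.
Among 5 other galectins and the galectin-3 binding protein Lgals3bp 0 were DEGs higher, and Lgals4 was lower in MaAAD, at the fold threshold. Lgals3bp, at 0.84 ± 0.22 and 0.89 ± 0.23, passed the adjusted p (0.0014 and 0.0020) under the fold threshold, and so did Lgals1 in FeAAD, at 0.63 ± 0.17. Of 9 other tetraspanins 2 rose in FeAAD and 3 in MaAAD, the leukocyte tetraspanins Cd53 (2.81 ± 0.39 and 2.98 ± 0.41) and Cd37 in both and Tspan4 in males. Of 11 genes often reported beside Trem2 in lesion macrophages 5 rose in each sex, or 4 in females without FeAAD5. They were led by osteopontin (Spp1) at 8.27 ± 0.89 and 8.97 ± 0.94 and by Mmp12 and Clec7a in both. Spp1 was called higher in NonAD against Con too, at 3.99 in females and 5.51 in males. Of 7 osteoclast genes, which share Atp6v0d2, 3 rose in each sex, or 2 in females without FeAAD5. These were Dcstamp and Ocstamp in both, with Mmp9 in females and Ctsk in males. Dcstamp had a mean of 0.0664 CPM in FeCon and 0.793 in FeAAD, and Ocstamp 0.136 and 0.446. Both passed the filter through the libraries where they are high, so their calls are no support. Tnfrsf11a, the RANK receptor, differed by -0.78 ± 0.15 and -0.62 ± 0.16, past the adjusted p and under the fold threshold.

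**Figure D5:**
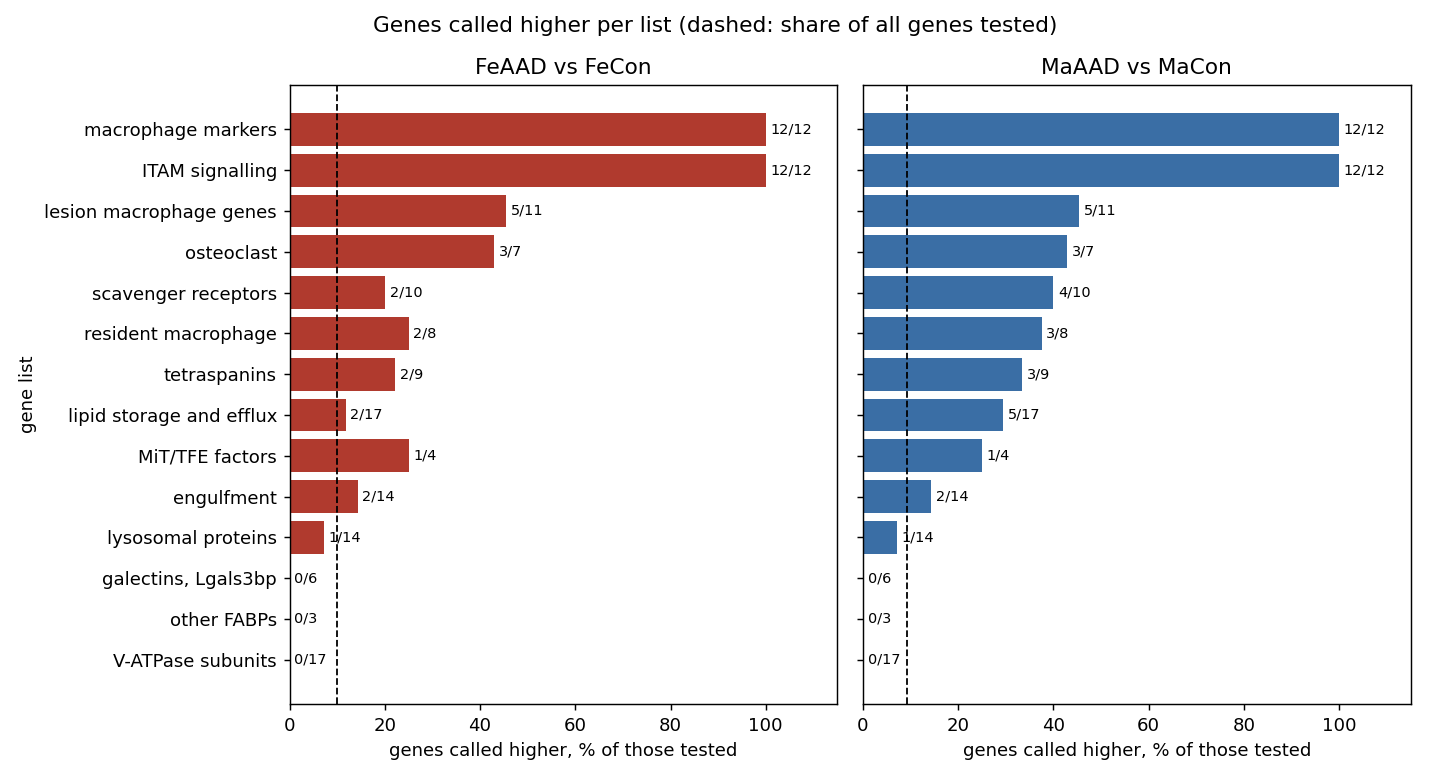
Share of tested genes called higher in each list in FeAAD against FeCon and MaAAD against MaCon, on axes from 0, with the number called of the number tested beside each bar and a dashed line at the share of all genes tested. Macrophage markers and ITAM signalling genes are called throughout, and V-ATPase subunits, galectins with Lgals3bp and other fatty-acid binding proteins have 0 called higher.

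Markers of other cells moved in the same aortas, and their part in the members' values was not tested. Counts called higher stand against 9.94% of all genes in FeAAD and 9.18% in MaAAD. Some neutrophil, dendritic, B cell and monocyte genes were near 0 in FeCon, such as Cxcr2 (mean 0.172 CPM), Flt3 (0.212), Pax5 (0.119) and Ly6c2 (0.0711). Such genes pass the filter through the libraries where they are high, so counts that hold them are no support. Smooth muscle markers had 0 higher and 4 of 8 lower in FeAAD and 5 of 8 in MaAAD against Con, where 2.78% and 2.18% of all genes were called lower, their sum being 13943 to 31893 CPM in FeAAD against 30532 to 52200 in FeCon. Neutrophil genes were higher in 5 of 5 tested in FeAAD and 4 of 5 in MaAAD, with sums of 5.88 to 882 CPM in FeAAD, the highest in FeAAD5, and 8.30 to 237 in MaAAD, the highest in MaAAD7, without which 2 of 5 were called. Those are the aortas that were highest for Trem2, Tyrobp and the macrophage marker sum, and TYROBP is also read in neutrophils. A part of neutrophils in the marker sum was not tested. Monocyte genes were higher in 5 of 6 in both sexes (Ccr2 by 4.19 ± 0.53 and 4.61 ± 0.55), or 4 of 6 in males without MaAAD7.
Dendritic cell genes were higher in 5 of 7 in both sexes, with 1 lower in MaAAD, or 0 lower without MaAAD5 or MaAAD7. B cell genes were higher in 5 of 5 and 3 of 5 (2 of 5 without MaAAD5 or MaAAD7), and T cell genes in 0 of 6. Erythroid genes were higher in 5 of 5 in FeAAD, also without FeAAD2, which had the highest sum at 26918 CPM beside a FeAAD median of 640, and 0 of 5 in MaAAD. Markers of resident macrophages were higher in 2 of 8 and 3 of 8 (Pf4 and Mrc1 in both, F13a1 in males). The male count was 2 of 8 without MaAAD7. Cbr2 differed by -0.62 and -0.85. Fibroblast genes were higher in 2 of 6 in both (Lum and Col1a1), and endothelial, Schwann cell, adipocyte and cardiac genes in 0. In FeAAD the adipocyte gene Lep was lower, a call lost without FeAAD5, and 4 of 6 cardiac genes were lower.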

How the data were processed

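RNA from 48 thoracic aortas was read from strand-specific mRNA libraries on a DNA NanoBall platform. The authors deposited expected counts per gene for each mouse, not scaled to library size, and the submitters' processing notes name Bowtie2, RSEM 1.3.1 and GRCm39. Library totals ranged from 13548003 to 17281262 counts. The values, 4.99% of which were not whole, were rounded, and all values of the 10 genes were whole.

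Groups were taken from the labels, as were columns. Low genes were removed with filterByExpr, libraries were scaled by TMM, and 1 robust quasi-likelihood model of the 6 groups was fitted in edgeR 4.0.16 (R 4.3.3), with p adjusted over 14431 genes by the Benjamini-Hochberg method. DEGs had to pass both an adjusted p of 0.05 and a fold change of 1 or more, up or down, on the log2 scale. The 12 comparisons were 9 pairwise and 3 interactions. The test relative to macrophages used the mean natural log of (count + 0.5) over 12 markers as the offset. CPM values are TMM-scaled, log2 values carry a pseudocount of 1, and standard errors are approximate. The scripts were tested on simulated data. Mice are separate animals. Where up to 3 counts are set against 0, that covers counting error only.

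The members and lists were chosen with earlier results of these data known. Named genes were the 10 members, of each list up to 3 with the largest change among DEGs and the 2 most abundant, and the 5 genes most like Trem2 and most like Gpnmb. Others named from the lists were chosen after their values were seen. Alternatives were DESeq2 1.42.0, its size factors, no filter, adjusted p alone, no robust estimation, the compared groups only, the replicate block, other macrophage references and leaving out each library.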

Additional observations from a re-analysis of the deposited data

Results flagged for a closer look

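Of 60 sets of values, 10 genes in 6 groups, 19 had a highest or lowest aorta whose gap to its neighbour exceeded the critical share of the group's range (Dixon's test), where chance gives about 1 in 20. FeAAD5 stood above the other FeAAD aortas for Trem2 (109 CPM, next 23.4), Cd68 (199, next 53.1), Lgals3 (242, next 107), Fabp5 (236, next 38.1), Tyrobp (333, next 44.5) and Msr1 (111, next 29.8). MaAAD7 stood above the other MaAAD aortas for Trem2 (77.5 CPM, next 37.9) and Tyrobp (144, next 50.4). FeAAD8 did so for Gpnmb (114 CPM, next 39.4) and Atp6v0d2 (6.06, next 2.24), and MaAAD5 for Gpnmb (225, next 50.3) and Atp6v0d2 (4.01, next 1.34).

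Among BAPN-treated aortas without a lesion FeNonAD8 was high for Trem2 (9.43 CPM, next 4.71), Cd68 (35.4, next 17.6), Tyrobp (31.0, next 17.3) and Msr1 (11.2, next 4.29), and MaNonAD1 was low for Cd9 (379 CPM, next 503). In the controls FeCon3 was high for Lgals3 (41.4 CPM, next 30.8) and MaCon8 low for Cd68 (4.81, next 10.4). Per library, not relative to the markers, FeAAD5, FeAAD8 and MaAAD5 are the aortas whose removal ended a member's call in AAD against Con or in FeAAD against FeNonAD. No member's response differed between the sexes past the threshold in the full fit.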

How the results depend on the processing

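Every member called in FeAAD or MaAAD against Con kept its direction in the 7 alternative settings and in every fit without 1 library, except that Atp6v0d2 did not pass the count filter when FeAAD and FeCon were fitted alone. The counts of DEGs among the members ranged, over fits without 1 library and over the other settings, from 6 to 7 and 6 to 8 in FeAAD against FeCon, from 5 to 7 in both for FeAAD against FeNonAD and from 7 to 8 and 7 to 10 in MaAAD against MaCon. The male comparisons with MaNonAD, a group of 4, depended on the settings. In MaNonAD against MaCon, where no member was called, the count was 1 in DESeq2, 2 with the replicate block, 4 with the compared groups only and 0 to 1 without 1 library. In MaAAD against MaNonAD, where 1 was called, it was 4 in DESeq2, 0 without the filter, 0 with the replicate block, 0 with the compared groups only and 0 to 3 without 1 library, while over all genes DESeq2 called 515 and edgeR 51 in that comparison. The sex difference in the AAD response had 0 to 1 called without 1 library. Relative to the markers the count was 1 with Adgre1, Csf1r and Mpeg1 as reference in FeNonAD against FeCon and in MaNonAD against MaCon, 1 in the latter with the replicate block and 0 to 1 without 1 library, 7 by adjusted p alone in FeAAD against FeNonAD and 1 to 4 without 1 library in MaAAD against MaNonAD. In FeAAD against FeCon it was 3 to 5 without 1 library and 4 to 6 over the settings, against 4, since Fabp5 and Trem2 lay at the fold threshold, and in MaAAD against MaCon 5 to 6 and 4 to 6, against 6, with Gpnmb and Fabp5 not called by the summed markers and Trem2 not called by the 3-gene reference. Leaving out single high aortas for the gene lists was chosen after seeing the data. The causes were not tested.

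The replicate numbers in the titles did not pair the mice: over 15 pairs of groups the mean correlation of same-numbered deviations ran from -0.23 to 0.16, and in no pair of groups were all over 0.1. With the number as a block MaAAD against MaCon had 7 members called, Gpnmb being lost, and FeAAD against FeNonAD had 6, Lgals3 being lost.

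Signs turned only for log2 differences that were not called in either fit. The sex difference of Cd9 in the AAD response was 0.0101 in DESeq2, 0.0101 with DESeq2's size factors, 0.00270 without the filter, 0.0220 with the replicate block and 0.0151 with the compared groups only. With the replicate block the sign changed for Gpnmb (-0.0661) in FeAAD against FeCon and Fabp5 (0.0445), Tyrobp (0.10) and Atp6v0d2 (0.00173) in MaAAD against FeAAD. With the replicate block and relative to macrophage markers the sign changed for Msr1 (-0.0229) and Atp6v0d2 (-0.32) in FeAAD against FeCon, Tyrobp (0.0424) and Atp6v0d2 (-0.23) in MaNonAD against MaCon, Tyrobp (0.0112) in MaAAD against MaCon and Tyrobp (-0.0312) in MaAAD against MaNonAD. With the summed marker counts as reference the sign changed for Cd68 (0.11), Lgals3 (0.0636) and Tyrobp (0.18) in FeNonAD against FeCon, Cd68 (0.17) in FeAAD against FeCon, Cd68 (0.0604) in FeAAD against FeNonAD, Tyrobp (0.0337) in MaNonAD against MaCon, Tyrobp (0.33) and Atp6v0d2 (0.11) in MaAAD against MaCon and Cd68 (0.23) in MaAAD against MaNonAD. With Adgre1, Csf1r and Mpeg1 as reference the sign changed for Trem2 (-0.21) in FeNonAD against FeCon, Msr1 (-0.00483) and Atp6v0d2 (-0.29) in FeAAD against FeCon, Cd68 (-0.0379), Lgals3 (-0.0706) and Atp6v0d2 (-0.0985) in MaNonAD against MaCon and Cd68 (-0.0920) in MaAAD against MaCon. Without 1 library the ranges that crossed 0 were as follows. FeNonAD against FeCon had Apoe from -0.0858 to 0.0476 and Msr1 from -0.15 to 0.30. FeAAD against FeCon had Gpnmb from -0.34 to 0.32. MaNonAD against MaCon had Gpnmb from -0.0873 to 0.47. MaAAD against MaNonAD had Gpnmb from -0.0742 to 1.29. MaCon against FeCon had Cd68 from -0.13 to 0.0538 and Trem2 from -0.21 to 0.0454. MaNonAD against FeNonAD had Msr1 from -0.0159 to 0.39, Atp6v0d2 from -0.0438 to 0.81 and Cd9 from -0.12 to 0.0127. MaAAD against FeAAD had Atp6v0d2 from -0.57 to 0.57, Gpnmb from -0.22 to 1.27, Lgals3 from -0.0505 to 0.66, Trem2 from -0.19 to 0.97, Msr1 from -0.11 to 1.06, Fabp5 from -0.40 to 0.64 and Tyrobp from -0.70 to 0.80. The sex difference in the NonAD response had Cd9 from -0.0151 to 0.12. The sex difference in the AAD response had Cd9 from -0.0699 to 0.0711, Atp6v0d2 from -0.32 to 0.82, Trem2 from -0.0595 to 1.11, Fabp5 from -0.55 to 0.49 and Tyrobp from -0.79 to 0.71. The sex difference in the NonAD to AAD step had Cd68 from -0.42 to 0.46, Lgals3 from -0.47 to 0.24, Apoe from -0.34 to 0.13, Cd9 from -0.13 to 0.0180, Gpnmb from -0.61 to 0.88, Msr1 from -0.18 to 0.99, Fabp5 from -0.86 to 0.20, Tyrobp from -1.02 to 0.48 and Atp6v0d2 from -1.08 to 0.0558. The relative difference in FeNonAD against FeCon had Trem2 from -0.0502 to 0.11 and Tyrobp from -0.0854 to 0.0201. The relative difference in FeAAD against FeCon had Atp6v0d2 from -0.76 to 0.23, Msr1 from -0.14 to 0.19 and Tyrobp from -0.0473 to 0.25. Relative values in FeAAD against FeNonAD had Tyrobp from -0.0165 to 0.28 and Atp6v0d2 from -0.54 to 0.48. Relative values in MaNonAD against MaCon had Lgals3 from -0.18 to 0.26, Atp6v0d2 from -0.19 to 0.28, Tyrobp from -0.13 to 0.0167 and Cd68 from -0.00134 to 0.16. Relative values in MaAAD against MaCon had Tyrobp from -0.0644 to 0.0345. Relative values in MaAAD against MaNonAD had Tyrobp from -0.0343 to 0.11 and Cd68 from -0.0874 to 0.0778.

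Depth limits Atp6v0d2, with at most 12 counts in a control library, and small groups limit all comparisons with MaNonAD. A pooled wall sample cannot separate cell number from RNA per cell, and the single high aortas FeAAD5, FeAAD8, MaAAD5 and MaAAD7 enter every AAD comparison of their sex.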
